A study of Homo sapiens with 22 samples.

Results

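HIC1, ABL2, L1CAM, CRYAB, PHLDA1 and FOXO1 are 6 of the 20033 protein-coding genes of GENCODE release 44. They were picked because a promoter mark appeared in chromatin of TC-32 cells after FLI1 knockdown. HIC1, ABL2, L1CAM and CRYAB were picked on H3K4me3, and PHLDA1 and FOXO1 on H3K27ac, in both knockdown peak lists. Their H3K4me3 and H3K27ac values, respectively, are therefore given as a description with no test.

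TC-32, an established line of Ewing sarcoma cells, was the model, and the data come from this 1 line. Cells were reverse transfected with 20 nM siNeg control siRNA (siNEG samples) or 20 nM siFLI1, which was used to deplete the fusion EWSR1::FLI1. Chromatin was immunoprecipitated for the transcription factor ETS1, for H3K27ac and for H3K4me3, with 2 replicates per arm. A further H3K27ac library per arm carried the antibody label ab4729 and was kept apart. The 14 peak lists of these libraries were used, and the 8 inputs among the 22 samples were not analysed here. The labels do not say whether replicates were separate transfections, so p-values measure only the spread between these samples, which may be technical. No measure of the fusion's own RNA or protein was analysed here.

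EWSR1::FLI1 joins part of EWSR1 to the DNA-binding domain of FLI1, an ETS factor that recognises a GGAA core. It is known to activate genes from GGAA repeats and to keep other genes low. H3K4me3 marks promoters that are active or poised, and H3K27ac marks active promoters and enhancers. HIC1 is a zinc-finger transcriptional repressor, ABL2 a tyrosine kinase of the ABL family that binds actin, and L1CAM a neuronal adhesion molecule. CRYAB is a small heat shock protein, PHLDA1 a protein with a pleckstrin-homology-like domain, and FOXO1 a forkhead factor restrained by AKT signalling.

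A peak list shows where a mark passed the caller's limit. The fold of a peak is the authors' enrichment over background, and folds of different lists are set side by side only as a description, since each list has its own background and depth. Depth is not given in the files, so absence from a list is not absence of the mark. A region, merged over lists at an overlap of at least 1 bp, counts as gained if each siFLI1 list has it and no siNEG list does, and as lost if only the siNEG lists do, both of them. Lists were similar in size for H3K27ac (60033 to 65509 peaks) and H3K4me3 (18353 to 19732 peaks). The ETS1 lists held 302 and 208 peaks in siNEG against 1640 and 2635 in siFLI1, and the ab4729 lists 32738 against 51663. Peak names inside the list labelled siFLI1 ETS1 replicate 1 carried the number 2, and 93.4% of its peaks overlapped the other siFLI1 list, against 43.7% in siNEG. The siNEG share is limited by its shorter second list, and summits of overlapping peaks lay within 10 bp for 21.8% in siFLI1 and 17.4% in siNEG. Whether the siFLI1 lists come from 1 library was not settled by these values, and because of the peak names they were counted as 1 sample. Of 8 Ewing sarcoma marker genes, 7 had promoter H3K4me3 in both siNEG lists, CD99 being the exception, with no listed peak in either mark. The haematopoietic markers PTPRC and CD3E and the epithelial marker KRT5 had neither mark at the promoter in any of these lists. EPCAM, another epithelial marker, had promoter H3K4me3 in 1 siNEG list and H3K27ac in both.

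The sequences at these start sites differed in kind. RefSeq promoters (GRCh38.p14) were matched for 4 of the 6 genes, and for ABL2, PHLDA1 and FOXO1 the 250 bases before the start are shown because these promoters carry the changes described next. All are on the minus strand, written 5′ to 3′. They lie at chr1:179143077-179143326, chr12:76031777-76032026 and chr13:40666642-40666891. The FOXO1 stretch lies almost wholly upstream of the gained H3K27ac regions of that gene, the nearer of which ends at 40666650. Capitals mark the AP-1 letters TGANTCA, the CCAAT box, the ETS core CCGGAA and the GC box GGGCGG on either strand. The TATA box as TATAAA, the forkhead site as GTAAACA, the TEAD site as GGAATG and the GGAA pair GGAAGGAA were searched the same way, and 10.8%, 2.98%, 11.9% and 3.07% of promoters hold them.
ABL2: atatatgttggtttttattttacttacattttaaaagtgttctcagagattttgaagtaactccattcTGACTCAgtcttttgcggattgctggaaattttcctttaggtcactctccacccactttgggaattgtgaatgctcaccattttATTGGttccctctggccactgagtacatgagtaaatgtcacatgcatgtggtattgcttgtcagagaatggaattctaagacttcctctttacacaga
PHLDA1: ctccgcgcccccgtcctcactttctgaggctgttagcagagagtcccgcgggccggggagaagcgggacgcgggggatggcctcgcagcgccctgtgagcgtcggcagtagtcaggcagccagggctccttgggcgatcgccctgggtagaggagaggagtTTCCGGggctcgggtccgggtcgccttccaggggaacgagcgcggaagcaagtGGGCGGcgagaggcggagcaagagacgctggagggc
FOXO1: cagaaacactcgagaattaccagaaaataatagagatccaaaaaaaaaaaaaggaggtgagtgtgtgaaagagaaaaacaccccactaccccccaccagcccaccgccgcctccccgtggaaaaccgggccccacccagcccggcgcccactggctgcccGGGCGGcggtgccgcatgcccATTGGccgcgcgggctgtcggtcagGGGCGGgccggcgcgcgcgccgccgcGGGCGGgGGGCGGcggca
The ABL2 sequence held 1 CpG, at the 14.7th percentile of 34788 RefSeq promoters, whose median was 11. It held 1 AP-1 match, present in 6.59% of all promoters, and 1 CCAAT match, present in 32% of them. PHLDA1 held 26 CpGs (82.3rd percentile), 1 ETS match, a motif found in 14.5% of promoters, and 1 GC box, found in 42.6%. FOXO1 held 27 CpGs (84.1st percentile), 4 GC boxes and 1 CCAAT match. A match of letters is not evidence of binding.

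L1CAM has a different layout, because its RefSeq starts at 153875944 and 153876014 lie outside the gained H3K4me3 region. That region lay at the upstream annotated starts 153886142 to 153886173, with its summits at 153885979 and 153885901 in the first intron. The 300 bases around these summits, hg38 chrX:153885765-153886064, minus strand, are shown with GC boxes in capitals.
L1CAM intron 1: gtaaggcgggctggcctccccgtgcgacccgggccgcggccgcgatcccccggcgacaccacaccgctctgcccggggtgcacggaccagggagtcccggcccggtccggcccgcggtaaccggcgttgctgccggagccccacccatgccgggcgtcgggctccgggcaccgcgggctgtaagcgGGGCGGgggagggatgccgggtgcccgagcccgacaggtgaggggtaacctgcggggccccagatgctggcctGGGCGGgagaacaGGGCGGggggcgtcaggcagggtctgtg
This stretch held 36 CpGs and 3 GC boxes. The 200 bases around the H3K27ac summit, which both siFLI1 lists placed at 153886734, lie upstream of these starts at chrX:153886634-153886833 on the minus strand. They held 13 CpGs and 1 GC box.
L1CAM upstream: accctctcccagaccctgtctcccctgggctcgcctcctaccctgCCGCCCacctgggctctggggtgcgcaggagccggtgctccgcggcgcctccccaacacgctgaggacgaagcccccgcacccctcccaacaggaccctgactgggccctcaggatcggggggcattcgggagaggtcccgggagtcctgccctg
In the sequences printed for these 4 genes, the TATA box, the forkhead site, the TEAD site and the GGAA pair had 0 matches.

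HIC1, on the plus strand of chromosome 17 (2054154-2063241, ENSG00000177374.13), gained H3K4me3 over its internal start sites. The region 2054968-2056335 overlapped UTR and coding exons. It was absent from both siNEG lists and had folds of 24.6 and 22.3 in siFLI1. An adjoining region at 2053674-2054638, nearer the first start, was absent from siNEG replicate 1, had a fold of 6.29 in siNEG replicate 2, and reached 9.12 and 11.8 in siFLI1. The siNEG replicate 2 peak ended 681 bp from the gained region. The mark was thus listed over the starts at 2054154 and 2054215 in 1 control library and over those from 2055099 on in none.

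H3K27ac was not listed within 2 kb of that HIC1 start in any of the 4 replicated lists or in the ab4729 pair. Further away it stood in all 4 lists at 5 regions of the window, upstream ones at 2030074-2031542 and 2041985-2043731 among them. Of the 3 gained regions, the first lay inside the gene, over an exon, and the others downstream of it. These stood at 2060648-2060988 (folds 4.26 and 4.77), 2066211-2066876 (3.87 and 4.56) and 2111365-2111882 (4.46 and 4.76). Over the gene body and 50 kb to each side, H3K27ac peaks covered 6011 and 9503 bp in siNEG and 20062 and 18326 bp in siFLI1. Both siFLI1 values lay above both siNEG values, a log2 ratio of 1.34 (pooled SD 0.34, n = 2 per arm; exact two-sided permutation p = 0.33). HIC1 shares this window with SMG6, whose annotated span runs past it, so these 3 regions cannot be assigned to HIC1.

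ABL2 (chromosome 1, 179099330-179229684, minus strand, ENSG00000143322.22) has an upstream and an internal promoter, and only the internal one gained H3K4me3. The region 179140977-179143189, over the starts at 179143044 to 179143076, was absent from both siNEG lists and had folds of 18.1 and 24.8 in siFLI1. The nearest siNEG peaks lay 56598 and 56662 bp away. At the upstream promoter (179226349-179231779), H3K4me3 was listed with folds of 74.4 and 98.6 in siNEG and 98.0 and 68.4 in siFLI1. Its covered length overlapped between arms, at 4811 and 5219 bp in siNEG and 5202 and 5164 bp in siFLI1.

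H3K27ac, which was not used to pick ABL2, was higher in both siFLI1 lists at both promoters, and the difference between the promoters was not tested. At the internal promoter (179141467-179144798) siNEG replicate 1 listed a peak of fold 2.77, siNEG replicate 2 listed none, and siFLI1 had folds of 16.5 and 23.5. Within 2 kb of the internal start the mark covered 289 and 0 bp in siNEG and 3231 and 3283 bp in siFLI1. Within 2 kb of the upstream start it covered 645 and 617 bp in siNEG and 1230 and 767 bp in siFLI1, with strongest folds of 4.78 and 5.65 against 9.09 and 5.95. Intronic H3K27ac regions were gained at 179129813-179130785 (4.32 and 5.44) and 179166367-179167969 (6.06 and 6.04). Over the whole window the mark covered 5934 and 3708 bp in siNEG and 17170 and 14759 bp in siFLI1. The arms did not overlap, with a log2 ratio of 1.76 (pooled SD 0.36, n = 2 per arm; exact permutation p = 0.33), and of 0.83 with 100 kb to each side.

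L1CAM (chromosome X, 153861514-153886173, minus strand, ENSG00000198910.14) gained H3K4me3 at 153884232-153886250. It was absent from both siNEG lists, whose nearest peaks lay 40882 and 40788 bp away, and had folds of 17 and 16.8 in siFLI1. H3K27ac, which played no part in its choice, was gained next to it at 153886511-153886938, 338 bp upstream of the outermost start, with folds of 7.17 and 4.13. Within 2 kb of the start no siNEG list held H3K27ac, and the siFLI1 lists covered 428 and 609 bp. The antisense gene L1CAM-AS1 overlaps this promoter, and the marks carry no strand. Over the window, H3K27ac covered 4428 and 5032 bp in siNEG and 6682 and 5293 bp in siFLI1, a log2 ratio of 0.33 (pooled SD 0.19; exact permutation p = 0.33). Without siFLI1 replicate 1 the log2 ratio was 0.17 and without siFLI1 replicate 2 it was 0.50. H3K4me3 over the window overlapped between arms (6930 and 7691 bp against 6700 and 7177 bp). Outside the gained region it was 6930 and 7691 bp in siNEG and 4681 and 5582 bp in siFLI1. It was lower in both siFLI1 lists, as was H3K4me3 length in the windows of 50.8% of the 16003 genes covered in every list.

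CRYAB (chromosome 11, 111908564-111923722, minus strand, ENSG00000109846.9) gained H3K4me3 where H3K27ac was already listed. The H3K4me3 region 111909345-111912281 was absent from both siNEG lists and had folds of 18.0 and 14.8 in siFLI1. The next region, 111912539-111914376, was listed at 3.81 in siNEG replicate 1, not in siNEG replicate 2, and at 4.81 and 6.95 in siFLI1. Its siNEG peak lay 991 bp from the gained region. CRYAB and HSPB2, another small heat shock protein gene, start back to back here, so the gained region lies within 1 kb of starts of both and cannot be assigned to either.

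H3K27ac over the CRYAB promoter (111909543-111915846) stood in all lists, with folds of 9.75 and 8.62 in siNEG and 15.4 and 8.65 in siFLI1. Within 2 kb of the start it covered 1687 and 1601 bp in siNEG and 2816 and 2983 bp in siFLI1. Over the window the lengths were nearly level, at 21741 and 21193 bp in siNEG and 22603 and 21794 bp in siFLI1, a log2 ratio of 0.05 (pooled SD 0.03; exact permutation p = 0.33). It was 0.02 without siFLI1 replicate 1 and 0.03 without siNEG replicate 2, with exact p = 0.67 for each, and 0.31 with 10 kb to each side. No H3K27ac region was gained in this window, and 1 was lost at 111963512-111964435 (6.58 and 4.32 in siNEG).

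**Figure D1:**
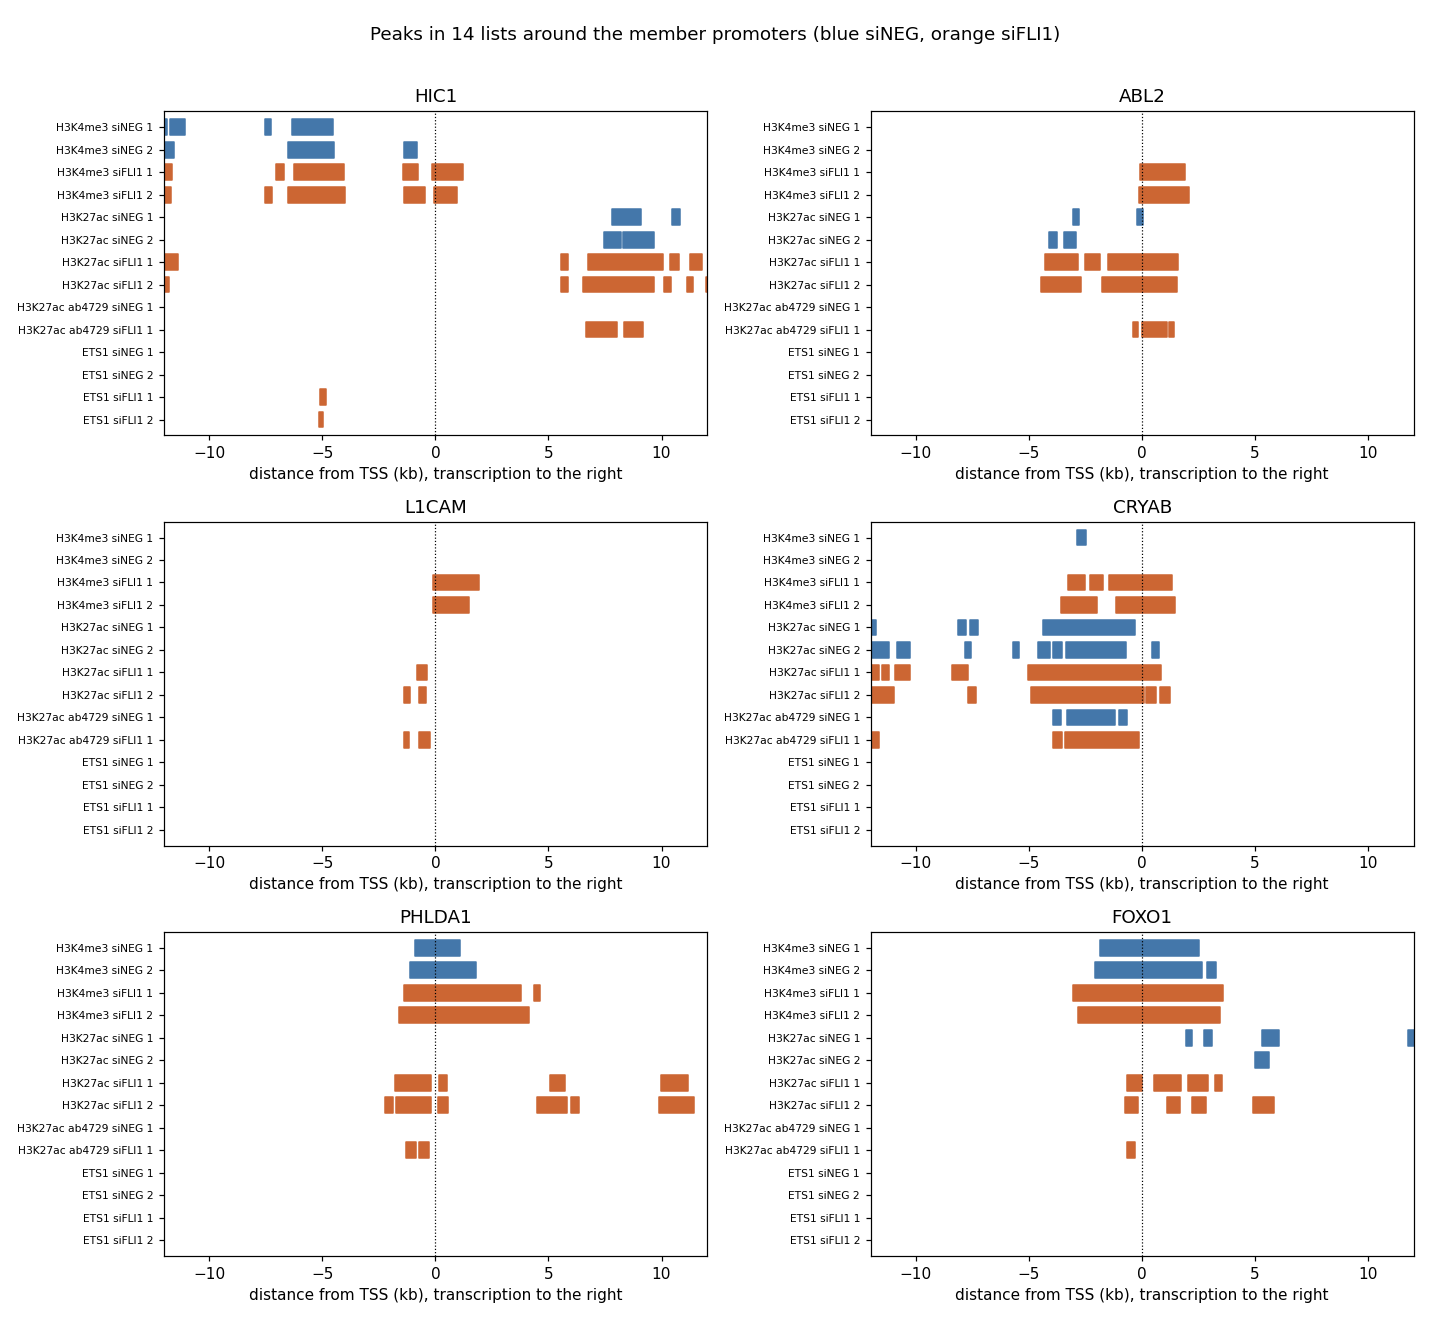
Peak intervals of the 14 lists around the start site nearest each gene's strongest H3K4me3 summit (for the 4 genes picked on H3K4me3, within the gained region). The horizontal axis is distance from that start in kb, with transcription to the right, each row is 1 list, and bars are peaks (blue siNEG, orange siFLI1). At L1CAM no siNEG bar appears in the stretch shown, whereas at PHLDA1 and FOXO1 H3K4me3 bars stand in both arms.

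PHLDA1 (chromosome 12, 76025447-76031776, minus strand, ENSG00000139289.15) was picked on H3K27ac and had the most new H3K27ac regions of the 6 genes, with 4 in its window. The promoter region 76031790-76033401 had folds of 13.0 and 13.1 in siFLI1 and ranked above 92.3% and 92% of peaks in those lists. The others, at 76031047-76031495, 76025796-76027092 and 76020165-76021716, had folds between 2.66 and 6.01. H3K27ac covered 3188 and 4307 bp in siNEG and 9577 and 11570 bp in siFLI1, a log2 ratio of 1.51, and of 0.92 with 100 kb to each side. PHLDA1-DT and PHLDA1-AS1 also start within 1 kb of these promoter regions.

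H3K4me3 was not used to pick PHLDA1. Its promoter region (76027483-76033207) was listed in all 4 lists, with folds of 14.7 and 13.9 in siNEG and 43.0 and 32.8 in siFLI1. Over the window H3K4me3 covered 2332 and 3302 bp in siNEG and 5666 and 6827 bp in siFLI1. The arms did not overlap, with a log2 ratio of 1.16 (pooled SD 0.28, n = 2 per arm; exact permutation p = 0.33), and of 0.63 with 100 kb to each side. The interval map shows where the length was added, with the siFLI1 bars reaching further into the gene than the siNEG bars.

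FOXO1 (chromosome 13, 40555667-40666641, minus strand, ENSG00000150907.10) was picked on 2 new H3K27ac regions. They lay at 40665895-40666650 over the first exon (folds 4.58 and 4.97) and at 40664162-40665372 in the first intron (4.16 and 5.18). Another intronic region, 40653329-40654114, was lost (4.35 and 3.71 in siNEG). H3K27ac covered 4941 and 4483 bp in siNEG and 6986 and 5651 bp in siFLI1, a log2 ratio of 0.42, and of 0.26 without siFLI1 replicate 1.

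FOXO1 H3K4me3, not used to pick it, formed 1 broad region (40662320-40668938) in all lists. Its folds were 28.2 and 28.7 in siNEG and 36.5 and 38.0 in siFLI1. It covered 4364 and 5148 bp in siNEG and 6619 and 6269 bp in siFLI1, a log2 ratio of 0.44 (pooled SD 0.13, n = 2 per arm; exact permutation p = 0.33). At FOXO1, as at PHLDA1, the H3K4me3 region was listed in both arms and was longer in both siFLI1 lists.

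**Figure D2:**
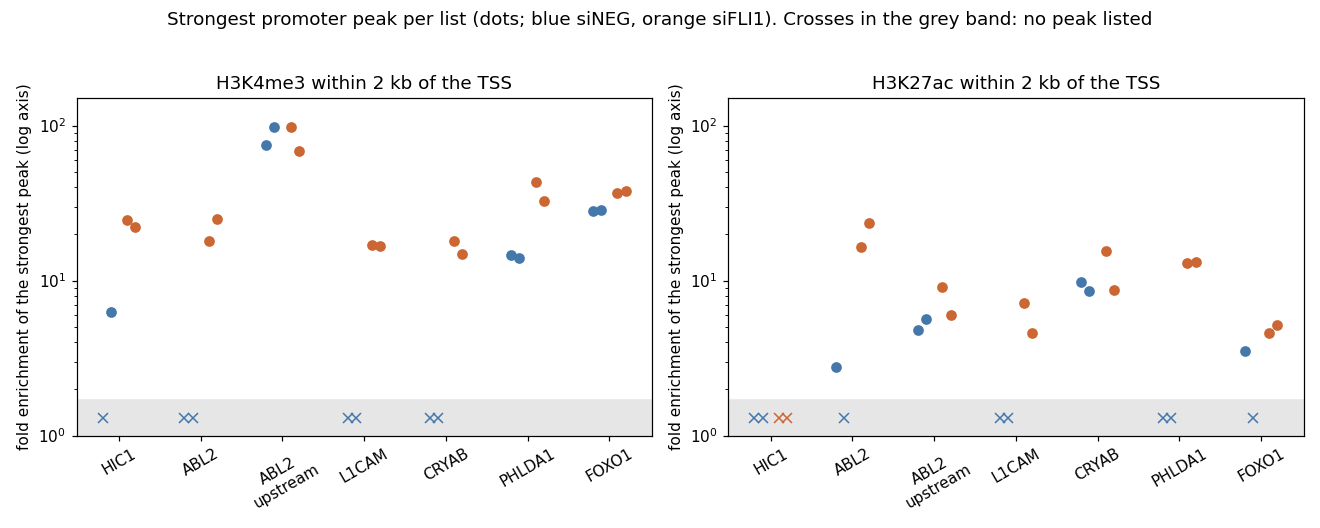
Fold enrichment of the strongest peak within 2 kb of the start (log axis) for H3K4me3 and H3K27ac, with 1 point per list (blue siNEG, orange siFLI1) and crosses in the grey band where no peak is listed. Folds are a description of each list. The ABL2 upstream promoter has H3K4me3 in all 4 lists (68.4 to 98.6), and HIC1 has crosses in all 4 H3K27ac lists.

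A gained H3K4me3 promoter region was the reason for choosing 4 of the genes, against 1.44% of all protein-coding genes. Among 277 such regions ranked by the lower siFLI1 fold, HIC1, ABL2 and L1CAM held ranks 2, 3 and 4, and CRYAB with HSPB2 held rank 6. IGFBP3, which encodes a binding protein of insulin-like growth factors, held rank 1 (31.5 and 37.2). CD24 at rank 5 (16.9 and 14.9) and IRF9 at rank 7 (14.6 and 17.5) stood next to CRYAB. Within the full siFLI1 H3K4me3 lists the 4 regions were of ordinary strength, at the 41.3rd to 49.9th percentile of fold.

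Gained H3K27ac regions were found in the windows of 5 of the 6 genes, all except CRYAB. The background is high, since 38.0% of all protein-coding genes had one. Of the 4 genes not picked on this mark, 3 had one. Within 1 kb of a start, L1CAM, PHLDA1 and FOXO1 had one, against 6.02% of genes, and only L1CAM among them was not picked on H3K27ac. Around the 4 genes picked on H3K4me3, 6 of 73 H3K27ac regions were gained (8.22%), a share near the 8.19% of all merged regions. Regions lost from both siFLI1 lists stood in the windows of CRYAB and FOXO1, and 22.9% of genes had one.

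The covered H3K27ac length was higher in both siFLI1 lists than in both siNEG lists at all 6 genes, and 51.2% of the 15208 genes covered in every list behaved this way. The arms overlapped at L1CAM with −log10 q of at least 5 (log2 ratio 0.29) and at CRYAB with windows of 100 kb (0.02). PHLDA1 and FOXO1 were picked on this mark, so nothing is read from their part of the count. The median log2 ratio was 0.84 over the 4 genes not picked on it and 0.26 over all these genes. Summed over the 4 genes picked on H3K4me3, it was 38114 and 39436 bp in siNEG and 66517 and 60172 bp in siFLI1. That is a log2 ratio of 0.71 (pooled SD 0.08, n = 2 per arm; exact permutation p = 0.33), against 0.15 for the whole lists. The mean fold of the peaks in these 4 windows was 5.41 and 4.84 in siNEG and 6.37 and 6.29 in siFLI1. Over all 6 windows the lengths were 46243 and 48226 bp against 83080 and 77393 bp, a log2 ratio of 0.76, with mean folds of 5.47 and 4.90 against 6.23 and 6.11.

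The 6 genes were not alike in H3K27ac. Among the genes not picked on this mark, ABL2 and HIC1 lay at the 97.7th and 94.9th percentiles of the log2 ratio over all genes. L1CAM lay at the 56.8th and CRYAB at the 32.1st. PHLDA1 (96.3rd) and FOXO1 (64th) were picked on H3K27ac, so their ranks are only a description. The summed value therefore rests mainly on ABL2 and HIC1 among the 4 genes picked on H3K4me3.

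**Figure D3:**
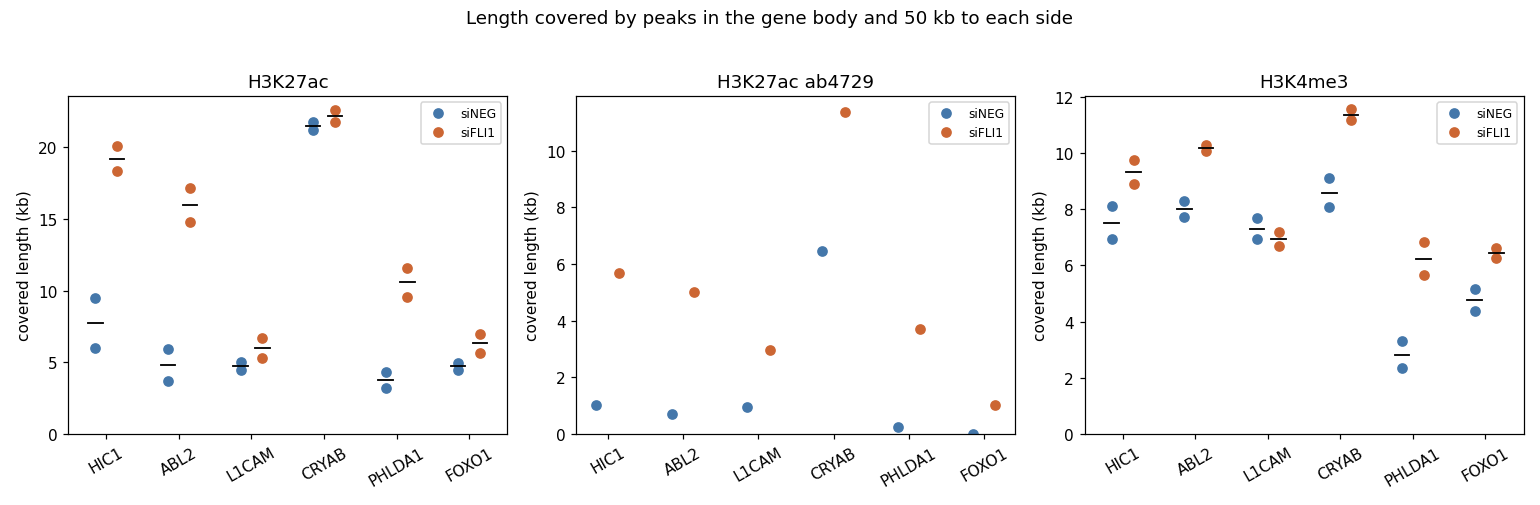
Length covered by peaks in each gene body and 50 kb to each side, in kb, for H3K27ac, the ab4729 pair and H3K4me3. Points are lists (blue siNEG, orange siFLI1) and short lines are means of 2. L1CAM is the gene whose H3K4me3 values overlap between arms.

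H3K4me3 length was higher in both siFLI1 lists at 5 of the 6 genes, all except L1CAM. HIC1, ABL2, L1CAM and CRYAB were picked on this mark, so nothing is read from their part of the count. Of the 16003 genes covered in every list, 13.8% were higher in both siFLI1 lists. The whole H3K4me3 lists covered slightly less in siFLI1, with a log2 ratio of −0.10, and the median over all genes was −0.12. H3K4me3 length was 6929 and 8111 bp in siNEG against 8907 and 9773 bp in siFLI1 at HIC1. It was 7737 and 8297 bp against 10061 and 10277 bp at ABL2, and 9099 and 8076 bp against 11182 and 11567 bp at CRYAB. Outside the gained regions the arms overlapped at these 3 genes, for example 7737 and 8297 bp against 8085 and 8064 bp at ABL2. Only PHLDA1 and FOXO1 were not picked on this mark, and their values lay at the 99.5th and 96th percentiles. Together they had 6696 and 8450 bp in siNEG and 12285 and 13096 bp in siFLI1, a log2 ratio of 0.75 (pooled SD 0.17, n = 2 per arm; exact permutation p = 0.33). The mean folds of their peaks were 29.7 and 28.5 in siNEG and 40.9 and 39.6 in siFLI1. Over all 6 windows the log2 ratio was 0.37 (37391 and 40625 bp against 49135 and 51890 bp), with mean folds of 22.7 and 30.5 against 29.4 and 26.8.

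For the values not used to pick the genes, 8 exact tests were run. Each gave an exact p = 0.33, the smallest that 2 lists against 2 can reach, and 0.33 after Benjamini-Hochberg adjustment. With this test no difference could pass a threshold of 0.05.

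**Figure D4:**
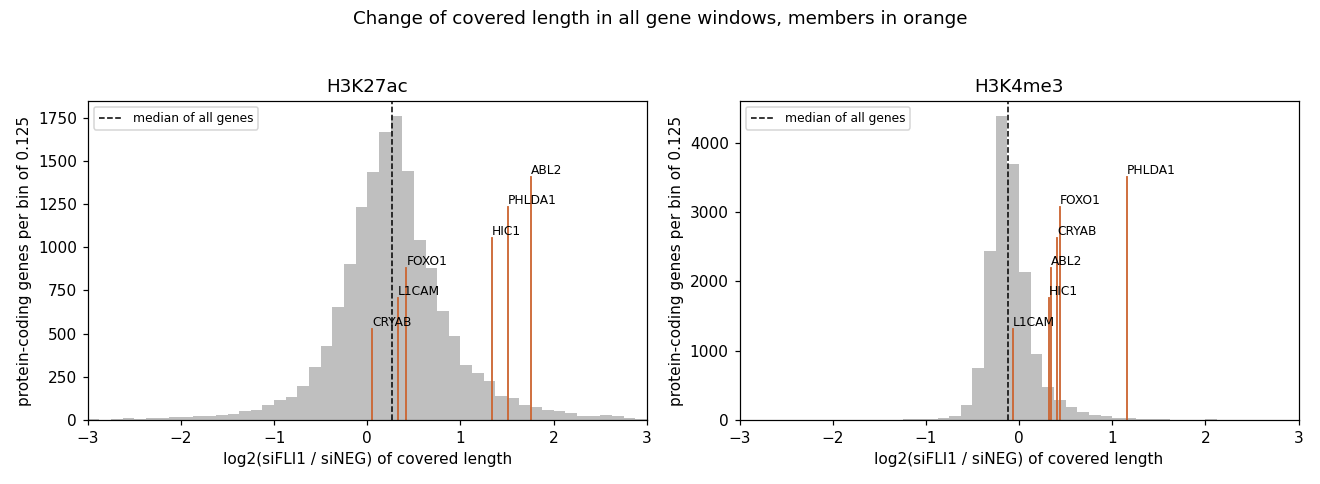
Number of protein-coding genes by log2 ratio (siFLI1 over siNEG) of covered length, for H3K27ac and H3K4me3, with the 6 genes as orange lines and the median of all genes dashed. CRYAB lies below the H3K27ac median of 0.26, and PHLDA1 is farthest to the right for H3K4me3, at 1.16.

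The ab4729 libraries, 1 per arm and thus with no replicate check, listed H3K27ac promoter regions only in siFLI1 at 4 of the genes. These were ABL2 (179141962-179143049, fold 9.30), L1CAM (153886369-153886884, 5.85), PHLDA1 (76031866-76032349, 5.67) and FOXO1 (40666199-40666538, 5.23). PHLDA1 and FOXO1 were picked on H3K27ac, so nothing is read from their part of this count. The labels do not say whether this pair is independent of the replicated H3K27ac libraries. Of all protein-coding genes, 24.1% had a region within 1 kb of a start in the siFLI1 list alone. Of all merged ab4729 regions, wherever they lay, 49.2% were in that list alone. The upstream ABL2 promoter was in both lists, with strongest folds of 7.16 in siNEG and 8.81 in siFLI1. At CRYAB both lists held the promoter, with strongest folds of 10.6 in siNEG and 15.6 in siFLI1. Covered length went from 1036 to 5685 bp at HIC1, from 718 to 5008 bp at ABL2, from 951 to 2946 bp at L1CAM, from 6471 to 11354 bp at CRYAB and from 231 to 3693 bp at PHLDA1. FOXO1 was listed at 0 bp in siNEG and 1023 bp in siFLI1. The siFLI1 list was longer throughout, with 84.9% of 14331 genes higher, so the direction alone is close to the background.

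ETS1 was not listed within 2 kb of the mapped start of any of the 6 genes, in any list. An ETS1 region in both siFLI1 lists stood in the window of HIC1 only, against 15.6% of all genes, and none of the 6 windows had a lost one, against 0.0200% of genes. The HIC1 region lay at 2049973-2050256, 3898 bp upstream of the HIC1 start, with folds of 5.32 and 7.34. It overlaps part of MIR132 and ends just short of MIR212, the microRNA genes of a shared cluster, inside an H3K4me3 region present in all 4 lists (2048565-2051123). The window of L1CAM held an ETS1 peak in the list labelled siFLI1 replicate 2 alone (153935139-153935344, fold 6.52), beside ARHGAP4 and NAA10. In all, 29.5% of genes had an ETS1 region of any kind in the window, and ABL2, CRYAB, PHLDA1 and FOXO1 had none. With so many more peaks in the siFLI1 ETS1 lists, list size cannot be told apart from ETS1 at this site.

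The ETS1 region near HIC1 is shown because it is the one ETS1 region of both siFLI1 lists near these genes. It is written for the plus strand of hg38 chr17:2049973-2050256, with GC boxes, some of which overlap each other, and the CRE letters TGACGTCA in capitals.
ETS1 region: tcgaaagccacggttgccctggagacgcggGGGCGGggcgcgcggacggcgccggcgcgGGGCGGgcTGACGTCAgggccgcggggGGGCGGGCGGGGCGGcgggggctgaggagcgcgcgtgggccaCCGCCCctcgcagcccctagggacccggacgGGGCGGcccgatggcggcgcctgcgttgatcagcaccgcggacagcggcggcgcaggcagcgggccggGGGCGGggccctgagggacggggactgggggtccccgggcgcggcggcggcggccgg
It held 49 CpGs, 8 GC boxes and no CCGGAA on either strand. The CRE motif was added to the search after this sequence had been seen. It matched once, and 1.64% of all promoters (250 bases) hold it.

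GGAA repeats, the kind of element EWSR1::FLI1 is known to use, were counted in these windows. Runs of at least 4 units numbered 4 at ABL2, 5 at L1CAM and 1 at PHLDA1, and HIC1, CRYAB and FOXO1 had 0. The longest, 9 units at chrX:153859459-153859494, lay 27017 bp from the nearest H3K27ac region of the L1CAM window. Runs of 4 units each at 153859496-153859511 and 153859513-153859528 almost adjoined it and were counted separately. The PHLDA1 run (76015694-76015709) lay 4456 bp from the gained region 76020165-76021716, and the ABL2 runs lay at least 17969 bp from H3K27ac.

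The genes whose promoters were most like each of these were found by the Euclidean distance of covered bp over the 14 lists within 2 kb of a start. For HIC1 they were RFTN1, PLK2 and PRRX1 (distances 213, 365 and 367 bp). RFTN1 had H3K4me3 over 0 and 416 bp in siNEG and 2117 and 1773 bp in siFLI1, against 0, 562, 2039 and 1907 bp for HIC1. For L1CAM they were CRABP2, LMOD1 and GASK1B (678, 713 and 854 bp), and none of the 3 had H3K4me3 in siNEG at the matched start. For CRYAB they were CD82, ZFP36L1 and MRTFA (1677, 1902 and 1965 bp). For PHLDA1 they were SLC25A24, SETBP1 and ITGA3 (948, 1066 and 1293 bp), and for FOXO1 GATA2, COPS5 and PFDN6 (596, 603 and 604 bp). ABL2 was matched at its upstream promoter, where PDCD6IP, ZNF622 and FBXO7 were nearest (480, 539 and 561 bp).

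Relatives and partners of the 6 genes were listed, 37 in all. Of these, 18 had a gained H3K27ac region in the window (48.6%, against 38.0% of all genes) and 12 a lost one, which 22.9% of all genes had. A promoter H3K4me3 region was gained at 1, HSPB2, which shares that of CRYAB (1.44% of all genes). It was lost at 1, ANK2, an ankyrin that anchors L1-family proteins (0.904% of all genes). Promoter H3K4me3 stood in all 4 lists at 28 of them and was not listed at 6. An ETS1 promoter region was gained at 6 (ABI2, HSPB6, PHLDA3, FOXO3, FOXO6 and GADD45A), against 6.01% of all genes. The median log2 ratio of H3K27ac length was 0.30 over the 33 that could be measured.

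Among the 12 listed with FOXO1, 6 had gained H3K27ac regions, and their median log2 ratio was 0.41. The ratio was 2.49 on the log2 scale at FOXO6, another forkhead factor, 1.89 at SESN3, a sestrin that restrains mTORC1 (5 gained regions), and 1.42 at IRS2, the insulin receptor substrate. CDKN1A, a cell cycle inhibitor and FOXO target, had 2 gained regions and a log2 ratio of −0.05. Of 6 relatives and partners of ABL2, 5 had gained regions and 3 had lost ones, against 38.0% and 22.9% of all genes. These windows held from 7 (ABI2) to 51 (CRK) H3K27ac regions, and the shares were not adjusted for region number. The median log2 ratio of the 6 was 0.08, with 1.61 at ABI2, an ABL interactor, and 0.56 or less at the others. Among those of L1CAM, NRCAM, an adhesion molecule of the same family, had 1 lost region and a log2 ratio of −1.64. ANK3, another ankyrin, had 2 gained regions and 1.14, and EZR, a linker of membrane and actin, had 3 gained regions, 1 lost one and 0.52. Among the 4 listed with HIC1, SIRT1, a deacetylase, had 3 lost regions and a log2 ratio of −1.08. EFNA1, an ephrin ligand, had 1 gained region and 0.39. ACKR3 and HIC2 had no gained or lost regions, with −0.22 and 0.30. Of the 2 relatives of PHLDA1, PHLDA3 had 6 gained regions and a log2 ratio of 0.78, and PHLDA2 had 1 gained and 1 lost region and −0.14.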

How the data were processed

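Peak lists from 14 immunoprecipitated TC-32 libraries were used, 1 list per library, not pooled. Per the submitters' processing notes, cutadapt 4.4, BWA 0.7.17, Picard 2.17.11 and MACS2 2.1.1 were used and the builds were GRCh38, hg38 and dm6. Their settings, roles and control libraries are not given in the sources used here. The deposited fold column is the authors' ratio of a peak over background. The 2 deposited −log10 columns give, for a peak, its p-value and its q-value from the authors. The deposited score column and the deposited summit offset are the authors' whole numbers, and only the offset was used, to place summits. The files give no depth, and each list's lowest −log10 q lay from 2.01 to 2.55.

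Only peaks on chromosomes 1 to 22 and the sex chromosomes entered (0 to 12 per list lay elsewhere). Lists were merged per antibody at an overlap of at least 1 bp. A window was the gene body and 50 kb to each side, and a promoter region lay within 1 kb of a GENCODE release 44 start. Covered bp per list were compared on the log2 scale by exact two-sided permutation (Python 3.11.15, numpy 2.4.6, scipy 1.17.1), tested first on simulated data. The members and lists were chosen with earlier results of these data known. Genes named are the 6 members, neighbours with a gained or lost promoter region, gained H3K4me3 promoters ranked next to the members, the 37 relatives, the 3 most similar promoters per member, and markers, of which 1 is not reported here. The other neighbours were named after their values were seen. Replicate numbers were not shown to pair the libraries. Alternatives were windows of 10 and 100 kb, −log10 q of at least 5, equal numbers of peaks, an overlap of 50%, absence within 1 kb, starts within 2 kb, each replicate left out, the replicate block and the ab4729 pair.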

Additional observations from a re-analysis of the deposited data

How the results depend on the processing

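Of 175 alternative values for 19 results, 169 kept the sign of the log2 ratio or, for counts, stayed near the reported count. No alternative could give an exact p below 0.33. The replicate block repeats the reported ratio, and leaving a list out loosens the gained definition, so this tally is not a measure of robustness. Separation of the arms was not part of it. The arms overlapped for H3K27ac at L1CAM with −log10 q of at least 5 and at CRYAB with windows of 100 kb. H3K4me3 length at L1CAM was 0.00 (log2) without siNEG replicate 2, against −0.07, and ran from −0.15 to 0.00 with a replicate left out. Members with a gained H3K4me3 promoter numbered 2 (ABL2 and L1CAM) in place of 4 when absence meant no siNEG peak within 1 kb. Members with an ETS1 region, 2 as reported, numbered 0 with equal numbers of peaks, 1 with windows of 10 kb, 4 with windows of 100 kb, and 1 to 2 with a replicate left out, the 1 being without siFLI1 replicate 2. Members with a gained H3K27ac region numbered 5 to 6 throughout.

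The summed log2 ratios moved with the window. H3K4me3 length over all 6 genes was 0.98 with 10 kb and 0.19 with 100 kb, against 0.37, and H3K27ac length over the 4 genes picked on H3K4me3 was 1.04 and 0.48, against 0.71. In the ab4729 pair the latter was 1.45. With a replicate left out it ran from 0.63 to 0.78. The replicate block gave 0.71 for it and 0.75 for H3K4me3 at PHLDA1 and FOXO1, with an exact sign-permutation p of 0.50, the smallest possible with 2 pairs. The deviations of same-numbered lists had the same sign at 4 of 6 genes for each mark. No value could be given for FOXO1 in the ab4729 pair, for L1CAM with 10 kb windows or for H3K27ac at PHLDA1 with 10 kb windows, where siNEG covered 0 bp. Depth is not given in the files, so a weak mark below the calling limit cannot be told from none.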

Other observations

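Away from the starts of the 6 genes, by more than 1 kb, their windows held 13 H3K4me3 regions that stood in all 4 lists. Their covered length was lower in both siFLI1 lists at 7, higher in both at 2 and overlapped between arms at 4, with no test. In the wider windows of all genes covered in every list, 50.8% were lower in both siFLI1 lists, so a lower length is common and is not particular to these windows. At DPH1 beside HIC1 (2029912-2032352) it was 1492 and 2317 bp in siNEG and 1165 and 1157 bp in siFLI1, and at TOR3A beside ABL2 (179081207-179084379) 2926 and 3078 bp against 2883 and 2900 bp. All 3 such regions beside L1CAM were lower in siFLI1, with 5054 and 4879 bp against 3135 and 4137 bp at 153931010-153936063, by ARHGAP4 and NAA10. So were both regions by DIXDC1 beside CRYAB, with 3683 and 4124 bp against 3141 and 3317 bp at 111935947-111940282. The higher ones both lay beside HIC1, at RTN4RL1 (2024198-2026234, 1005 and 1210 bp against 1370 and 1796 bp) and at MIR132 and MIR212 (2048565-2051123, 1838 and 2038 bp against 2214 and 2545 bp). The arms overlapped at the regions by OVCA2, ALG9, FDXACB1 with CFAP68, and NAP1L1.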
